A study of Mus musculus with 6 samples.

Results

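The clustered protocadherins of the mouse genome are described here in RM-1 cells, a line of mouse prostate cancer, with or without added Bhlhe22. They were taken as all protein-coding genes of the deposited table with symbols of the Pcdha, Pcdhb or Pcdhg series, which gave 57 genes of 55487. Of these, 14 belong to the alpha, 22 to the beta and 21 to the gamma cluster. The polymorphic pseudogene Pcdhgb8 is not among them, and the symbol Pcdha11 stands for a pair of identifiers, ENSMUSG00000007440 and ENSMUSG00000102206, both kept. RNA was sequenced from 3 libraries of cells given a lentivirus that overexpresses Bhlhe22, a neuronal basic helix-loop-helix transcription factor (Bhlhe22 cells), and from 3 libraries of cells given a blank lentivirus (vector cells). All cells were grown at the same temperature and CO2 level, and nothing in the labels tells if replicates came from different cultures or how many clones they hold. The p-values therefore measure only the variation among these libraries, which may be technical. Within each group, values below are given in the order of replicates 1, 2 and 3.

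Protocadherins are cadherin-like proteins of the cell surface. In neurons each cell uses a small set of promoters of the alpha, beta and gamma clusters, and the resulting combination of proteins, which bind the same combination on other membranes, gives the cell a surface identity that neurites use to avoid their own branches. Alpha and gamma transcripts join a variable exon, with its own promoter, to constant exons shared by the whole cluster, while beta genes have no constant part and most are a single exon. CTCF and cohesin loop the chosen promoters to distant enhancers, and DNA methylation keeps others silent.

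The libraries held between 15464709 and 25129552 counts. Without Bhlhe22 replicate 1 the number of genes called between the groups was 4682, against 2881 with all libraries, so results are given with and without single libraries where that moves a call. Bhlhe22 had 0 counts in the 3 vector libraries and reached 8706, 14785 and 17995 across Bhlhe22 libraries. Of 10 epithelial markers 4 were tested, with Krt8 lower, at 757 ± 14.5 CPM (counts scaled to library size) in vector and 545 ± 34.0 CPM in Bhlhe22 cells (SD, n = 3), Krt19 higher, at 157 ± 4.03 and 208 ± 19.0 CPM, and Krt18 and Epcam not called. Of 10 mesenchymal markers 9 were tested, with 2 lower (Vim, at 1658 ± 55.4 and 1322 ± 89.8 CPM, and Col1a2, at 0.532 ± 0.045 and 0.118 ± 0.014 CPM), none higher and 7 not called, of which Fn1, Col1a1 and Twist1 had positive estimates. Of 12 neuronal markers 5 were tested and none was called, and the list summed to 69.5 to 76.1 CPM in vector and 65.2 to 78.8 CPM in Bhlhe22 libraries, so its range in one group overlapped that in the other. The immune list summed to 38.0 to 43.1 CPM in vector and 44.1 to 52.5 CPM in Bhlhe22 libraries, with no overlap; nearly all of it was Cd68, the 1 gene tested, which was not called, and 5 of its 9 genes were at 0 in all libraries. Glial markers summed to 1.60 to 2.22 CPM in vector and 1.38 to 1.79 CPM in Bhlhe22 libraries, and endothelial markers to 3.74 to 4.86 and 3.15 to 4.18 CPM, with overlap in both. The part of these markers in the protocadherin values was not tested.

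The locus lies on chromosome 18 of GRCm38, and all 57 members are on its plus strand. The alpha cluster runs from 36930184 to 37187661, the beta cluster from 37264938 to 37524479 and the gamma cluster from 37661793 to 37841873. In the GENCODE M21 annotation 2860 exonic bases, between 37156155 and 37187657, belong to every alpha member. In the gamma cluster 2116 exonic bases, between 37825021 and 37841870, belong to every member. No base was shared by all beta members, and 20 of the 22 share none with another member; the exceptions are Pcdhb21 and Pcdhb22, which overlap by 455 bases. Between 27.8% and 66.8% of a gamma member's exon length is shared with another member. How reads in these shared exons were given to a gene, or if they were left out, is not stated in the sources used here. Both the split of counts among gamma members and their sum can depend on it.

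The alpha cluster was not detected. All 14 members, the 12 with variable exons near the start of the cluster and the C-type pair Pcdhac1 and Pcdhac2, had 0 counts in each of the 6 libraries. A count of 0 allows up to 3 counts, which is 0.119 to 0.197 CPM per gene and library, and covers counting error only. The constant alpha exons are part of every one of these gene models, so no read in them was counted for a member either.

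The beta cluster was detected at a low level. It had 40.8% to 48.8% of its counts in Pcdhb22 and 13.1% to 25.6% in Pcdhb17, with the rest spread over many genes. Its counts came to 130, 121 and 115 across vector libraries, and to 78, 98 and 177 across Bhlhe22 libraries. Scaled for depth these were 6.15 ± 0.943 CPM in vector and 5.75 ± 1.13 CPM in Bhlhe22 cells (SD, n = 3), a ratio of 0.934, and the groups overlapped. In bulk RNA, fewer cells that use a gene and less RNA per cell cannot be told apart. Of the 22 members 20 had at least 1 count in some library, and 11 to 16 had a count in any given library. Pcdhb1 and Pcdhb13 had none.

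Only 2 beta genes passed the filter on low counts, Pcdhb22 and Pcdhb17, the members with the most reads. Pcdhb22 was at 2.99, 2.86 and 2.53 CPM across vector libraries and at 2.17, 2.07 and 2.95 CPM across Bhlhe22 libraries, so Bhlhe22 replicate 3 lay within the vector range (edgeR log2 fold change -0.21 with SE 0.20, adjusted p = 0.515). Pcdhb17 was at 0.942, 1.07 and 1.08 CPM in vector and 1.31, 0.826 and 1.27 CPM in Bhlhe22 replicates, again with overlap (0.14, SE 0.26, edgeR adjusted p = 0.755). Pcdhb16, the third by reads, had 5, 10 and 4 counts in vector and 3, 8 and 18 in Bhlhe22 libraries. The 20 members below the filter held at most 18 counts in a library. Among them Pcdhb8 had 2, 1 and 0 counts in vector and 0, 13 and 7 in Bhlhe22 libraries, and Pcdhb21 had 17 counts in vector replicate 1 and 0 in all other libraries; both were singled out after their values were seen. These 20 genes were outside the reported fit. In a fit with no filter, which took in the 18 of them that had a count, no clustered protocadherin was called, beside 4.38% of all genes lower and 5.33% higher.

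**Figure D1:**
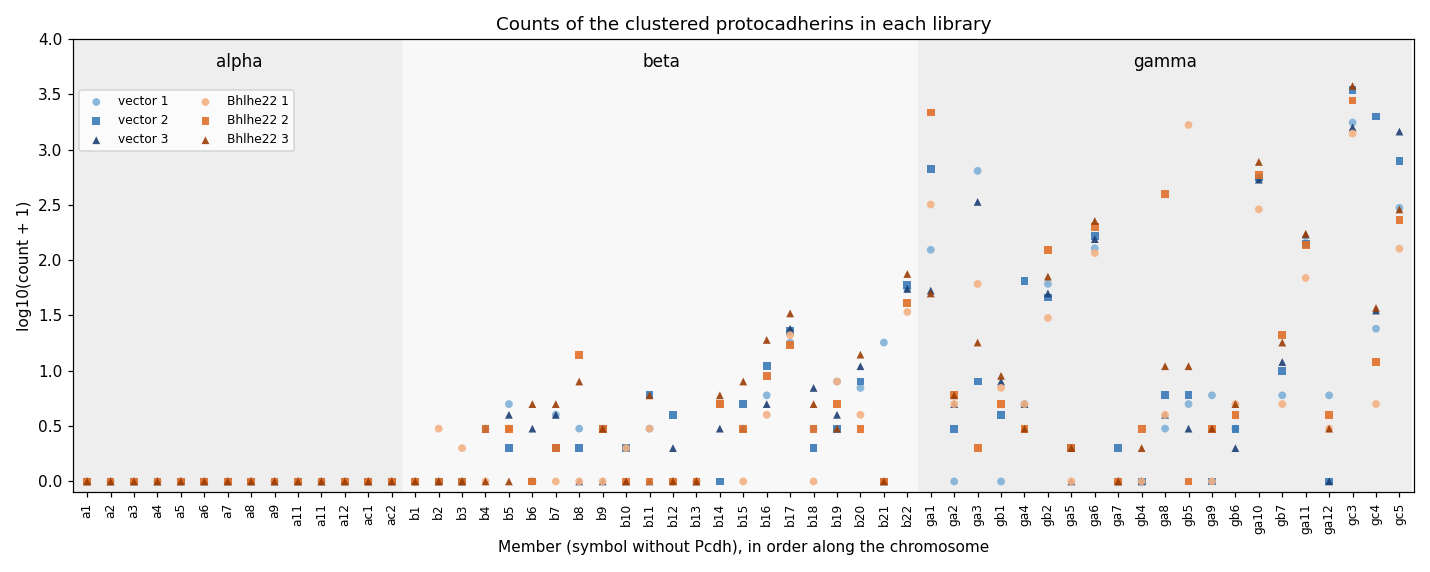
Counts of each member in each of the 6 libraries, as log10(count + 1) on the vertical axis, with members on the horizontal axis in order along the chromosome and the 3 clusters shaded. The 14 alpha members lie at 0, no beta member exceeds 74 counts, and several gamma members, among them Pcdhga1, Pcdhga3, Pcdhga8, Pcdhgb5 and Pcdhgc4, are spread over a wide range within a group.

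The gamma cluster held nearly all the reads. Its counts came to 3727, 7877 and 4397 across vector libraries and to 4092, 6642 and 5436 across Bhlhe22 libraries, or 207, 382 and 206 CPM and 269, 343 and 217 CPM. Vector replicate 2 and Bhlhe22 replicate 2 were the highest libraries of their groups, and the 2 groups overlapped. The means were 265 ± 102 and 276 ± 63.6 CPM (SD, n = 3), a ratio of 1.04. No test was made on this sum, since its members were chosen with results known. All 21 gamma members had at least 1 count, and 17 to 20 had one in any given library.

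The gamma members differed in how evenly they were read across libraries of 1 group. Pcdhgc3, a C-type isoform known to be expressed outside neurons as well, was the leading gene. It was at 97.1, 167 and 74.2 CPM across vector libraries and at 91.5, 143 and 149 CPM across Bhlhe22 libraries, and the groups overlapped (edgeR log2 fold change 0.18 with SE 0.32, adjusted p = 0.739). The estimate was -0.044 without vector replicate 3 and 0.58 without vector replicate 2. Per kilobase of exon it reached 20.5 ± 8.77 CPM in vector and 23.3 ± 5.76 CPM in Bhlhe22 cells. Of its exon length 28.4% is also covered by the antisense gene BC037039, and whether counting used strand is not stated in the labels.

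Pcdhgc3 took between 34.0% of the gamma counts (Bhlhe22 replicate 1, 95% Wilson interval 32.6 to 35.5%) and 68.9% (Bhlhe22 replicate 3, 67.7 to 70.2%). The largest of the other genes differed from library to library. In vector replicate 1 it was Pcdhga3, with 640 of 3727 gamma counts (17.2%, interval 16.0 to 18.4%). In vector replicate 2 it was Pcdhgc4, with 1983 of 7877 counts (25.2%, 24.2 to 26.1%). In vector replicate 3 it was Pcdhgc5, with 1451 of 4397 (33.0%, 31.6 to 34.4%).

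Among the Bhlhe22 libraries, Pcdhgb5 held 1666 of 4092 gamma counts in replicate 1 (40.7%, interval 39.2 to 42.2%), more than Pcdhgc3. In replicate 2 Pcdhga1 held 2159 of 6642 (32.5%, 31.4 to 33.6%). In replicate 3 Pcdhga10 held 771 of 5436 (14.2%, 13.3 to 15.1%). Leaving Pcdhgc3 aside, each of the 6 libraries thus had a different leading gamma gene. These intervals cover counting error only, and the labels name no molecular identifiers.

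**Figure D2:**
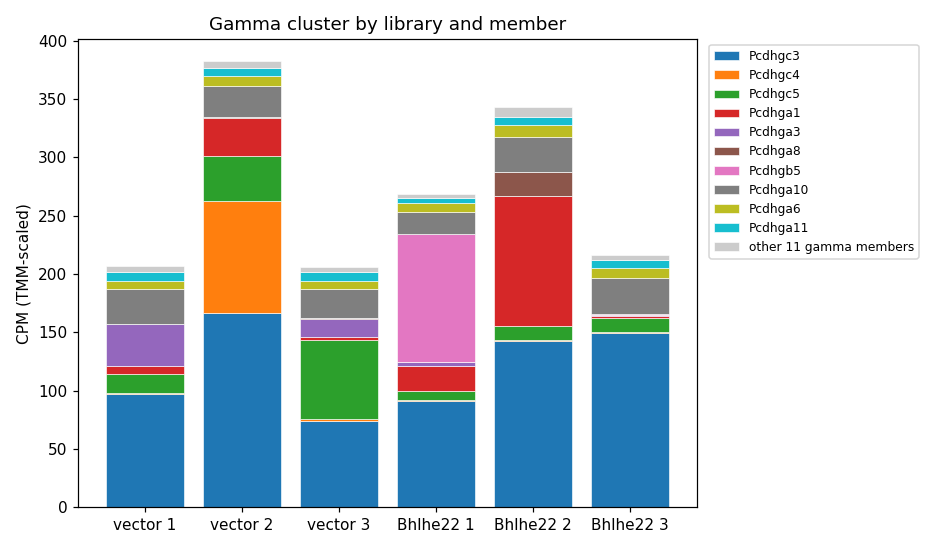
CPM of the gamma cluster in each of the 6 libraries, stacked by member, with the other 11 members pooled in light grey. Pcdhgc3 is the base of every bar. The largest block apart from Pcdhgc3 is a different gene in each library, such as Pcdhgc4 in vector 2 and Pcdhgb5 in Bhlhe22 1.

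Among the A-type genes, Pcdhga1 and Pcdhga3 were the most uneven of those tested. Pcdhga1, the gene at the start of the gamma cluster, had 123, 671 and 52 counts across vector libraries and 317, 2159 and 49 across Bhlhe22 libraries. Pcdhga3 had 640, 7 and 335 counts in vector and 60, 1 and 17 in Bhlhe22 libraries. In both groups replicate 2 was the library with the most Pcdhga1 and the fewest Pcdhga3 reads. The groups overlapped for both genes. The log2 fold change was 1.68 for Pcdhga1 (SE 1.36, edgeR adjusted p = 0.440), and it was -0.33 without Bhlhe22 replicate 2. For Pcdhga3 it was -3.59 (SE 1.48, edgeR adjusted p = 0.143), and it ranged from -5.41 without Bhlhe22 replicate 1 to -2.47 without vector replicate 1.

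A further pair of gamma genes was read mainly in a single library. Pcdhgb5 had 1666 counts in Bhlhe22 replicate 1, or 109 CPM, against 4, 5 and 2 counts across vector libraries and 0 and 10 in Bhlhe22 replicates 2 and 3. Pcdhga8 had 394 counts in Bhlhe22 replicate 2, or 20.3 CPM, against 2, 5 and 3 in vector and 3 and 10 in the other Bhlhe22 libraries. Both failed the filter on low counts and so were not tested. That filter asks, in at least 3 libraries, for a level equal to about 10 counts at median depth. Of all genes, 10408 reached 10 CPM in any library, and these 2 (0.0192%, or 0.0036% of the whole table) were the only ones with at least 10 CPM in 1 library and under 1 CPM in each of the other 5, limits that were set after the values were seen. Pcdhga4 showed a smaller case, with 64 counts in vector replicate 2 and 2 to 4 in every other library.

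Other A-type genes were more even. Pcdhga10 was at 29.7, 27.0 and 24.9 CPM in vector and 18.9, 30.2 and 30.7 CPM across Bhlhe22 libraries, with overlap (edgeR log2 fold change -0.03 with SE 0.19, adjusted p = 0.940), although its sign turned without vector replicate 1 (0.036) or Bhlhe22 replicate 1 (0.16). Pcdhga6 was at 7.04, 7.92 and 7.21 CPM in vector and 7.56, 10.2 and 8.96 CPM in Bhlhe22 cells (0.27, SE 0.14, edgeR adjusted p = 0.228). Pcdhga11 was at 7.87, 6.80 and 7.91 CPM in vector and 4.47, 7.02 and 6.85 CPM in Bhlhe22 cells (-0.29, SE 0.19, edgeR adjusted p = 0.333). These 3 genes together stood at 42.1 ± 2.30 CPM in vector and 41.6 ± 9.30 CPM in Bhlhe22 cells (SD, n = 3). Of the exon length of Pcdhga10 55.2%, and of that of Pcdhga11 29.0%, lies opposite Gm26672, a transcript of the other strand. Among B-type genes Pcdhgb2 had a log2 fold change of 0.51 (SE 0.44, edgeR adjusted p = 0.466) and Pcdhgb7 of 0.70 (SE 0.50, edgeR adjusted p = 0.378), with overlapping groups in both. Pcdhgb2 had 122 counts in Bhlhe22 replicate 2 and 29 to 70 in the other libraries, and its value without that library was -0.12. The remaining gamma members, Pcdhga2, Pcdhga5, Pcdhga7, Pcdhga9, Pcdhga12, Pcdhgb1, Pcdhgb4 and Pcdhgb6, had at most 8 counts in any library.

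Among the C-type genes, Pcdhgc4, which mouse neurons need for survival, was read mainly in vector replicate 2. It had 23, 1983 and 34 counts across vector libraries and 4, 11 and 36 across Bhlhe22 libraries. Bhlhe22 replicate 3, at 1.43 CPM, lay within the vector range of 1.27 to 96.3 CPM. The log2 fold change was -5.32 (SE 1.90, edgeR adjusted p = 0.099), and it was -0.84 without vector replicate 2 (edgeR adjusted p = 0.435). DESeq2 gave it no adjusted p-value.

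Pcdhgc5, a C-type isoform of the mature mouse brain, was the member that passed the test. It was at 16.4, 38.1 and 67.9 CPM across vector libraries and at 8.28, 11.8 and 11.4 CPM across Bhlhe22 libraries, on 296, 785 and 1451 counts against 126, 228 and 286. All 3 Bhlhe22 libraries lay below all 3 vector libraries, and the vector libraries differed among themselves by more than the gap between the groups. Pcdhgc5 was lower in Bhlhe22 cells (log2 fold change -1.96 with SE 0.48, adjusted p = 0.032 by the quasi-likelihood test of edgeR). Of the 6 fits that left out 1 library, the call held in the one without vector replicate 1 (-2.33, edgeR adjusted p = 0.0078). Without vector replicate 2 the values were -2.01 and 0.076, without vector replicate 3 they were -1.38 and 0.069, and without Bhlhe22 replicates 1, 2 and 3 the edgeR adjusted p-values were 0.181, 0.089 and 0.104.

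Over the family, 1 member was called lower and 0 higher of 12 tested by edgeR, and 3 members had an unadjusted p under 0.05. Among all 14663 tested genes 9.28% were called lower, 10.4% higher and 19.6% in either direction. DESeq2 also called Pcdhgc5 lower (adjusted p = 0.0050) and no other member, beside 11.1% lower calls over all genes. A share of 1 in 12 is near the share of lower calls over all genes. The groups did not overlap in 1 of the 12 members, against 40.8% of all tested genes. The median log2 fold change of the tested members was 0.056, that of all tested genes 0.0098, and 6 members had a positive and 6 a negative estimate. The 45 members below the filter (14 alpha, 20 beta and 11 gamma) carry no call in this fit. The count of members called lower was 0 with limma-voom, limma on log2 FPKM and no filter, where 9.61%, 9.79% and 4.38% of all genes were lower, and 2 with the replicate number as a block, where 6.77% were. With vector replicate 1 left out it was 1 (4.25% of all genes lower). It was 0 when the library left out was vector replicate 2 (4.54%), vector replicate 3 (4.6%), or replicate 1 (15.6%), 2 (5.37%) or 3 (7.01%) of the Bhlhe22 cells.

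**Figure D3:**
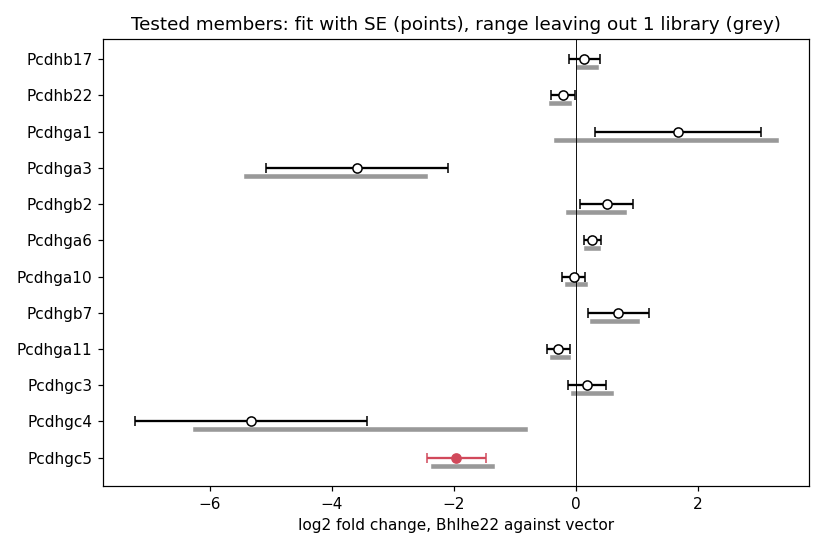
Log2 fold change of Bhlhe22 against vector cells for the 12 tested members, with the SE of the edgeR fit as bars, and the range over the 6 fits that each left out 1 library as grey lines. Pcdhgc5 (red) is the called member, and the widest grey lines belong to Pcdhgc4, Pcdhga1 and Pcdhga3.

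The spread between replicates of the uneven members was at the upper end of all genes. The biological coefficient of variation fitted by edgeR, the relative spread between replicates beyond counting error, was 0.130 at the median over the 14663 tested genes and 0.536 at the 99th percentile. It was 1.20 for Pcdhga3, 1.16 for Pcdhgc4 and 1.04 for Pcdhga1, all of them above the 99.8th percentile of dispersion. Pcdhgc5 (0.390) was at percentile 97.8, Pcdhgb2 (0.367) at 97.2 and Pcdhgc3 (0.277) at 93.1. Pcdhga6 (0.135) was at percentile 53.6, Pcdhga11 (0.168) at 73.1 and Pcdhga10 (0.175) at 75.7, and the beta genes Pcdhb17 (0.150) and Pcdhb22 (0.155) were at 64.1 and 67.0. In 3 of the 12 tested members (Pcdhga1, Pcdhga3 and Pcdhgc4) the highest library of a group was at least 10 times its lowest, after 0.5 CPM was added to both; this held for 34 of the 14663 tested genes in all, or 0.232%. This limit too was set after the values were seen, and the comparison carries no test.

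**Figure D4:**
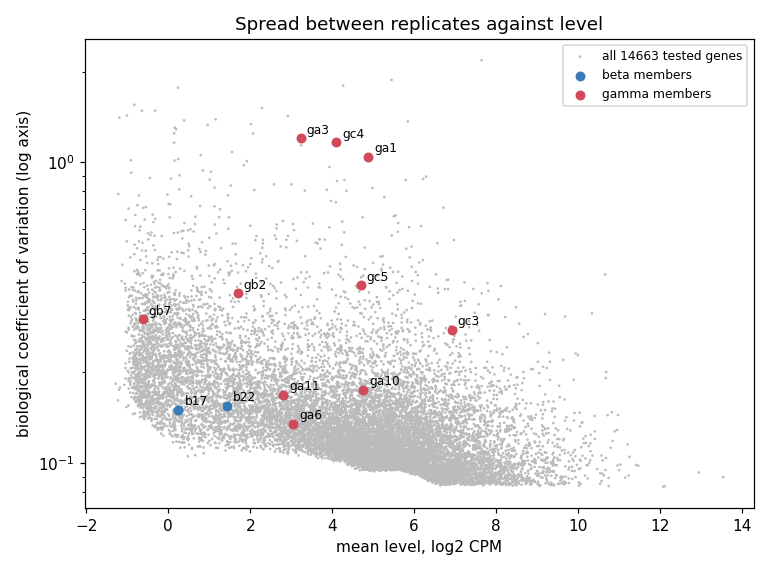
Biological coefficient of variation from the edgeR fit (vertical log axis) against mean level in log2 CPM for all 14663 tested genes (grey), with the 2 tested beta members in blue and the 10 tested gamma members in red. Pcdhga3, Pcdhgc4 and Pcdhga1 lie above 1.0, while Pcdhga6, Pcdhga10, Pcdhga11 and both beta members lie within the cloud.

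The uneven and the even gamma members share the same constant exons. The part of a gene's exon length shared with other members was 44.9% in Pcdhga3 and 47.1% in Pcdhga8, both uneven, and 44.8% in both Pcdhga6 and Pcdhga10, both even. It was 37.9% in Pcdhgc4, 31.5% in Pcdhgb5 and 39.5% in Pcdhga1, which were uneven, and 44.55% in Pcdhga11, which was even. Pcdhga4, read mainly in vector replicate 2, had the highest shared part of the gamma members, at 66.8%. The lowest was 27.8% in Pcdhgc5, at dispersion percentile 97.8. Shared parts were 38.5% in Pcdhgc3, 43.4% in Pcdhgb2 and 45.0% in Pcdhgb7, at percentiles 93.1, 97.2 and 94.8. The tested beta genes Pcdhb17, which shares none, and Pcdhb22, which shares 6.89%, were at dispersion percentiles 64.1 and 67.0. Among beta genes below the filter Pcdhb21, which shares 9.67%, had its 17 counts in a single library. No beta gene had over 74 counts in a library. Whether the assignment of reads in the constant exons has a part in the uneven counts was not tested.

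By subfamily, the A-type genes summed to 87.8, 78.2 and 58.8 CPM across vector libraries and to 56.5, 180 and 50.0 CPM across Bhlhe22 libraries. The B-type genes summed to 3.93, 3.11 and 3.28 CPM and to 112, 7.80 and 4.38 CPM, where Pcdhgb5 makes up nearly all of the highest value. The C-type genes summed to 115, 301 and 144 CPM and to 100.1, 155 and 162 CPM. Groups overlapped for the A-type and C-type sums. All 3 Bhlhe22 values of the B-type sum were above the vector values, a sum that was not tested. Among all tested genes 40.8% did not overlap between the groups. In Bhlhe22 replicate 1 the sum rests on Pcdhgb5, an untested member at 109 CPM. The tested B-type genes Pcdhgb2 (1.91 CPM) and Pcdhgb7 (0.263 CPM) were in that library below every vector library. Their vector ranges were 2.19 to 3.32 and 0.277 to 0.515 CPM.

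The deposited FPKM values (fragments per kilobase, scaled to depth) understate some members. In all 41 members with any count, the length by which the authors' FPKM divides matched the summed length of every distinct exon record within 2 bases, so that bases in overlapping exons of several transcripts were counted more than once. For Pcdhgc3 that length was 9536 bases against 5499 bases of exon, a ratio of 1.73, and for Pcdhgc5 11170 against 7627, a ratio of 1.46. For single-transcript members such as Pcdhga10, with 4732 bases, the lengths were equal. This affects levels compared between genes and not a gene's ratio between groups.

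Per kilobase of exon and averaged over the 6 libraries, Pcdhgc3 was at 21.9 CPM, ahead of Pcdhga10 (5.69), Pcdhga1 (5.47), Pcdhgc5 (3.36), Pcdhgc4 (3.02), Pcdhgb5 (2.73), Pcdhga3 (1.98), Pcdhga6 (1.72) and Pcdhga11 (1.43). Pcdhgc3 had the highest level per kilobase in each of the 6 libraries, although in Bhlhe22 replicate 1, where it was at 16.6 CPM per kilobase, Pcdhgb5 was at 16.3. The order of the genes from Pcdhga1 to Pcdhga3 does not hold beyond their spread: Pcdhgc4, for instance, was at 17.2 CPM per kilobase in vector replicate 2 and at 0.047 to 0.284 in the other libraries. Exon length in these levels includes the shared exons, and levels over each member's own exons alone are not given. By the authors' deposited FPKM the same gene led, with Pcdhgc3 at 12.6 and Pcdhga10 at 5.68 FPKM on average.

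Genes that act on the clusters were also read. Of 28 regulators (CTCF, cohesin and its loaders, DNA methyltransferases, silencing factors), all tested, 5 were lower, 2 higher and 21 not called, a share of 25.0% beside 19.6% of all genes, with a median log2 fold change of -0.15. Dnmt1, the maintenance DNA methyltransferase, fell from 409 ± 10.6 to 236 ± 20.0 CPM (edgeR log2 fold change -0.79 with SE 0.08, adjusted p = 9.95e-04). The cohesin subunit genes Smc3 (-0.58, edgeR adjusted p = 0.0020) and Rad21 (-0.38, 0.018), and Trim28 (-0.51, 0.0055), a co-repressor of zinc finger proteins, were lower as well. Ctcf, chosen after its value was seen, was at 104 ± 1.75 and 85.0 ± 2.38 CPM (-0.29, edgeR adjusted p = 0.019). Lrif1 (0.42) and Zfp110 (0.30), chosen in the same way, complete the higher genes. The gene with the highest level, Hnrnpu, which encodes a nuclear scaffold protein, was not called (-0.27, edgeR adjusted p = 0.185).

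Dnmt1, Smc3 and Trim28 were called without each library in turn. Ctcf lost its call without vector replicate 1, 2 or 3 or Bhlhe22 replicate 2 (edgeR adjusted p 0.076 to 0.091), as did Rad21 when vector replicate 1 or 2 or Bhlhe22 replicate 2 was left out (0.054 to 0.082). Lower regulators numbered 3 when vector replicate 1 or 2 or Bhlhe22 replicate 2 was left out, and 8 when Bhlhe22 replicate 1 was; in these fits 4.25%, 4.54%, 5.37% and 15.6% of all genes were lower. Higher regulators numbered 4 when Bhlhe22 replicate 1 was left out, 1 for vector replicate 2, and 0 for each of the other libraries, while higher genes were 15.7% of all genes without Bhlhe22 replicate 1 and 4.8% to 7.93% without another library.

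The non-clustered protocadherins, which are single genes at other places in the genome or beside the locus, included 3 called genes. Of 12 genes 4 were tested, of which 3 were lower and 0 higher (75.0% called, beside 19.6% of all tested genes and 9.28% lower), with a median log2 fold change of -0.99. Pcdh7, a delta-type protocadherin, was at 42.2, 41.3 and 40.6 CPM in vector and 20.8, 12.9 and 13.9 CPM across Bhlhe22 libraries, with a gap between the groups (edgeR log2 fold change -1.39 with SE 0.18, adjusted p = 0.0025), and it kept its call without each library in turn. Pcdh19, known as an epilepsy gene in humans, fell from 21.6 ± 1.29 to 11.3 ± 2.95 CPM (-0.93, edgeR adjusted p = 0.014), and Pcdh18 from 4.84 ± 0.591 to 2.31 ± 0.872 CPM (-1.04, edgeR adjusted p = 0.040). Without vector replicate 1, 2 or 3 or Bhlhe22 replicate 2 both lost their calls and 1 gene of the list was called, with edgeR adjusted p from 0.051 to 0.061 for Pcdh19 and 0.055 to 0.136 for Pcdh18; Pcdh18 also lost it without Bhlhe22 replicate 3 (0.064). Pcdh1, the most abundant, was at 45.7 ± 4.36 and 53.2 ± 9.33 CPM (0.22, edgeR adjusted p = 0.321), and was called without Bhlhe22 replicate 1 (0.33, edgeR adjusted p = 0.047). Among 10 large cadherins 4 were tested and 1 was called (25.0%, beside 19.6% of all tested genes): Fat2 rose from 59.7 ± 2.56 to 92.0 ± 14.6 CPM (0.62, edgeR adjusted p = 0.013) and lost its call without vector replicate 1 (0.066) or 3 (0.059). Fat1 was at 248 ± 12.5 and 232 ± 75.8 CPM (-0.09, edgeR adjusted p = 0.821), and at 0.15 without Bhlhe22 replicate 1. The large cadherins had 2 higher genes without that library, where 15.7% of all genes were higher.

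Of 23 genes for cytoplasmic partners of protocadherins and the proteases that cleave them, 21 were tested, with 1 higher, 1 lower (9.52% called, beside 19.6% of all tested genes) and a median log2 fold change of 0.096. Fyn, a Src-family kinase that binds alpha protocadherins, was at 73.9, 85.8 and 80.1 CPM in vector and 177, 161 and 158 CPM in Bhlhe22 libraries, with all Bhlhe22 values above all vector values (edgeR log2 fold change 1.05 with SE 0.08, adjusted p = 4.3e-04), a call kept without each library in turn. Ptk2b, which encodes the kinase PYK2 that protocadherin tails bind, was lower (-0.45, edgeR adjusted p = 0.037), and it lost this call without vector replicate 2 or 3 or Bhlhe22 replicate 2 or 3 (0.059 to 0.126). Rhoa, the most abundant, was not called (0.061, edgeR adjusted p = 0.581). With Bhlhe22 replicate 1 left out, 6 genes of the list were higher and 2 lower, where 15.7% of all genes were higher and 15.6% lower.

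Genes that flank or lie between the clusters were called about as often as all genes. Of 21 neighbours 19 were tested, of which 4 were higher and 0 lower, a share of 21.1% beside 19.6% of all tested genes and 10.4% higher, with a median log2 fold change of 0.069. The called genes were Ndfip1, an adaptor of ubiquitin ligases (0.45, edgeR adjusted p = 0.0056), the complex I subunit gene Ndufa2 (0.49, 0.044), the histidyl-tRNA synthetase gene Hars (0.37, 0.044) and Dnd1, an RNA-binding factor of germ cells (0.79, 0.039). Ndfip1 was called without each library in turn. The other three lost their calls without vector replicate 1, 2 or 3 or Bhlhe22 replicate 2 (0.084 to 0.152), where 1 gene of the list was called, and Dnd1 also without Bhlhe22 replicate 3 (0.093). Without Bhlhe22 replicate 1 there were 5 higher and 2 lower neighbours, beside the raised shares of all genes given for that fit above. Taf7, a subunit gene of the general transcription factor TFIID that lies between the beta and gamma clusters, had 165, 185 and 176 counts in vector and 155, 164 and 227 in Bhlhe22 libraries (0.069, edgeR adjusted p = 0.733). The most abundant neighbour, Arap3, was not called (-0.15, edgeR adjusted p = 0.414).

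**Figure D5:**
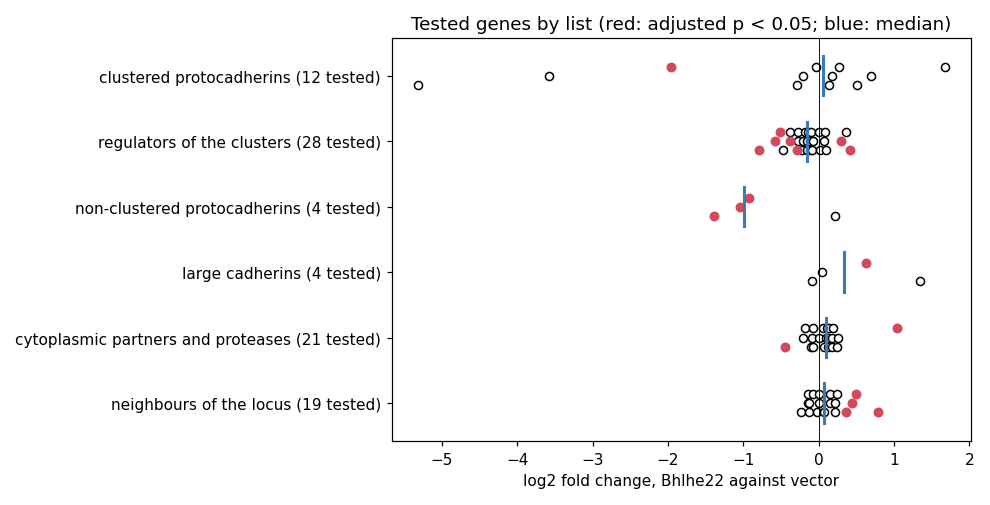
Log2 fold change of Bhlhe22 against vector cells for every tested gene of the clustered protocadherins and of 5 related lists, with called genes in red, other tested genes as open circles and the median of each list as a blue line. Of the 12 clustered protocadherins 1 is red, and of the 4 tested non-clustered protocadherins 3 are red and lower.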

How the data were processed

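The submitters' processing notes name CASAVA 1.8, HISAT2 2.1.0, StringTie 1.3.4b, edgeR and GRCm38, with no role or order. Per the file headers, the authors deposited raw counts for each gene and FPKM values; the annotation release and strand setting were not found in the labels. Gene models came from GENCODE M21, in which all 57 members had the coordinates of the table.

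A single model over all 6 libraries, with no covariate, was run in edgeR 4.0.16 (R 4.3.3). It used TMM scaling, a filter at a minimum count of 10 and a minimum total count of 15, the robust quasi-likelihood test (two-sided) and Benjamini-Hochberg adjustment over 14663 tested genes, with calls at 0.05. CPM are computed with TMM-scaled library sizes from the deposited counts. The script was tested on simulated data of 14438 tested genes. It recovered 13 of 49 changes of 1.5-fold, 32 of 50 of 2-fold and 89 of 96 of 4-fold, with 16 false calls. Many changes of 2-fold or less can thus be missed. Alternatives were other scalings and filters, a fit without robust estimation, DESeq2 1.42.0, limma 3.58.1 (voom, and log2 of the deposited FPKM with a pseudocount of 1), a replicate block and each library left out. The genes named were called members, the 3 members with the most counts in a cluster, other tested members and, per related list, up to 4 called genes with the smallest adjusted p plus the most abundant one; exceptions are stated. The members and lists were chosen with earlier results of these data known. Plots used matplotlib 3.10.9. One list of cell type markers is not reported here.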

Additional observations from a re-analysis of the deposited data

How the results depend on the processing

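The count of members called lower was 1 in the fit reported. It was 0 with limma-voom, with limma on log2 FPKM and with no filter (where 41 members were tested), and 2 with the replicate block, where Pcdhga3 joined Pcdhgc5 (log2 fold change -3.69, edgeR adjusted p = 0.0027). It ranged from 0 to 1 over the 6 fits that each left out 1 library. Replicate numbers carry no stated pairing, and deviations of same-numbered libraries from their group means correlated at 0.045, 0.022 and 0.025; each vector replicate correlated best with a Bhlhe22 library of another number. Over all genes 2881 were called, and between 1348 and 4682 with 1 library left out, the highest count being without Bhlhe22 replicate 1. Without vector replicates 1, 2 and 3 and Bhlhe22 replicate 2 the counts were 1348, 1458, 1480 and 1711. Estimates that changed sign with 1 library left out were those of Pcdhga1 (-0.33 without Bhlhe22 replicate 2, range -0.33 to 3.29), Pcdhgb2 (-0.12, range -0.12 to 0.79), Pcdhga10 (0.036 and 0.16, range -0.15 to 0.16), Pcdhgc3 (-0.044 without vector replicate 3, range -0.044 to 0.58) and Fat1 (0.15, range -0.27 to 0.15), all on the log2 scale. The ratio of summed levels stayed within 0.828 to 1.02 for the beta and 0.916 to 1.34 for the gamma cluster. Higher neighbours numbered 2 under upper quartile scaling, limma on log2 FPKM and the replicate block, Ptk2b lost its call with limma on log2 FPKM, no filter and the block, and regulators had 1 higher gene with limma on log2 FPKM. The causes of these changes were not tested.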

Other observations

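Beside the members, 29 other genes of the table lie within or across the locus. The protein-coding models Gm37013, Gm37388 and Gm42416, which span from the alpha to the gamma cluster, had 0 counts in every library. The gamma pseudogene Pcdhgb8 had 3, 1 and 3 counts across vector libraries and 0, 3 and 3 across Bhlhe22 libraries. BC037039, the antisense gene at Pcdhgc3, had 48, 20 and 51 counts in vector and 22, 14 and 11 in Bhlhe22 libraries, with overlapping groups (log2 fold change -1.27, edgeR adjusted p = 0.136). Gm26672, opposite Pcdhga10 and Pcdhga11, had 17, 17 and 21 counts in vector and 43, 1 and 66 in Bhlhe22 libraries (0.99, edgeR adjusted p = 0.471). Gm38182, on the strand of the gamma genes and overlapping their constant part, had 30, 4 and 18 counts in vector and 2, 10 and 9 in Bhlhe22 libraries (-1.33, edgeR adjusted p = 0.267). The transcribed processed pseudogene Gm8242, between Taf7 and Pcdhga1, had 111, 131 and 137 counts in vector and 184, 138 and 194 in Bhlhe22 libraries (0.50, edgeR adjusted p = 0.142).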
